A study of Mus musculus with 6 samples.

Results

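The variable (V) gene segments of the T cell receptor alpha chain, the Trav segments, were compared between double-positive thymocytes of conditional Mettl14 knockout mice and of controls, in the order in which they lie along mouse chromosome 14. The authors' normalized table names 74 Trav segments among its 16448 genes, and all 74 were followed through the raw counts, which cover 43430 genes. Mettl14 encodes the RNA-binding partner of Mettl3 in the enzyme complex that writes N6-methyladenosine on RNA. The KO group held 3 libraries from C57BL/6 mice with floxed Mettl14 alleles and a CD4-Cre transgene. The WT group held 3 libraries from littermate controls of the same strain, labelled WT, and the labels do not say whether these carried floxed alleles. The Cre is driven by Cd4 regulatory sequence, so deletion is not restricted to one stage or lineage of Cd4-expressing cells. CD4+CD8+ cells of the thymus were sorted by flow cytometry, and neither age nor sex is given in the labels. Nothing in the labels ties each library to a mouse of its own, so p-values measure the spread between libraries only.

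Double-positive thymocytes assemble the alpha chain gene by joining a Trav segment to a joining (J) segment, Traj, upstream of the constant gene Trac. The Rag1 and Rag2 recombinase starts with Trav segments near the J cluster and J segments at its 5′ end. Later rounds on the same allele replace that join with a Trav segment farther upstream and a Traj segment nearer to Trac, until the cell is selected or dies. Use of distal segments is therefore a common readout of how long double-positive cells live and keep rearranging. The delta chain locus lies between the Trav array and the Traj cluster, and segments with dv in their name can join to either chain.

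All 74 segments lay on the plus strand of chromosome 14 in GRCm38 (mm10), the build of the files. Distance was measured from the start of Traj61, the counted J segment farthest from Trac, at position 54155005. Trav21-dv12 was the nearest member, 279.0 kb away at chr14:53875984-53876751, and Trav1 was the farthest, 1727.1 kb away at chr14:52427928-52428876. The range was divided into 3 classes of equal width, 482.7 kb each. The proximal class held 38 segments from Trav21-dv12 to Trav4-2, the middle class 17 from Trav7-2 to Trav9d-4, and the distal class 19 from Trav15d-1-dv6d-1 to Trav1. In C57BL/6 mice a large duplication has copied blocks of the array, and the copies carry d or n in their names. The proximal class held 0 of these copies, the middle class 16 and the distal class 13.

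The segments at the ends of the array are shown to give the extent of their difference, and Trav11 because it encodes the V region of the invariant natural killer T (NKT) cell receptor, whose formation depends on late rearrangement. Trav1 encodes the V region of the mucosal-associated invariant T (MAIT) cell receptor. The sequences are the last 280 coding bases of the V exon on the plus strand, 5′ to 3′, from the GENCODE M21 transcripts of GRCm38, at chr14:52428597-52428876, chr14:53876473-53876752 and chr14:53519580-53519859. Capitals mark the last in-frame cysteine codon, beyond which lies the start of the complementarity-determining region CDR3.
Trav1: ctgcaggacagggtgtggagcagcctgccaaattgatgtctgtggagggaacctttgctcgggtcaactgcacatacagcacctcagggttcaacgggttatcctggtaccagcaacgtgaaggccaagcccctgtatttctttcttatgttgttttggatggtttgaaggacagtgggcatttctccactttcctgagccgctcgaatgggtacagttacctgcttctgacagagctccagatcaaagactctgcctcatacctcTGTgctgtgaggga
Trav21-dv12: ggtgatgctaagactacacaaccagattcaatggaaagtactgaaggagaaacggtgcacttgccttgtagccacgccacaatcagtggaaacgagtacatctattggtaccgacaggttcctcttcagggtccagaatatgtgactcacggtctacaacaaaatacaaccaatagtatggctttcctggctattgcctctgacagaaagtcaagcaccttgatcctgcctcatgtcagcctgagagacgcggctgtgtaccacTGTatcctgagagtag
Trav11: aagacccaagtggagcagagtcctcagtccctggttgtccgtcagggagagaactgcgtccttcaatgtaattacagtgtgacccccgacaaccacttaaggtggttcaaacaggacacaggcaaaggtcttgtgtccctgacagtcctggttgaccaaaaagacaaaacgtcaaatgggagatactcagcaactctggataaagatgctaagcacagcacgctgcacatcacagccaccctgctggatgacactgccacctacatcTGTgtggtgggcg

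Over the leader and V coding sequence, Trav1 and Trav21-dv12 shared 174 identical positions in a global alignment of 346 columns, or 50.3%. Trav11 had a copy, Trav11d, that differed from it only by the absence of the last base. The Trav16 family is shown as the example of a segment with both copies in the table, one near the J cluster and 2 farther away. Capitals in the copies mark bases that differ from Trav16, 4 in Trav16n and 5 in Trav16d-dv11 within the 280 bases shown (chr14:53743426-53743705, chr14:53351342-53351621 and chr14:53047542-53047821).
Trav16: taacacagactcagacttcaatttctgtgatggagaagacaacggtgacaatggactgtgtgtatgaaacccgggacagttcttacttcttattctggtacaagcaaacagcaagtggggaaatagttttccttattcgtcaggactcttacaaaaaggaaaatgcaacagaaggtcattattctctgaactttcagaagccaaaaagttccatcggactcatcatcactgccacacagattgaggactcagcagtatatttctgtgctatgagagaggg
Trav16n: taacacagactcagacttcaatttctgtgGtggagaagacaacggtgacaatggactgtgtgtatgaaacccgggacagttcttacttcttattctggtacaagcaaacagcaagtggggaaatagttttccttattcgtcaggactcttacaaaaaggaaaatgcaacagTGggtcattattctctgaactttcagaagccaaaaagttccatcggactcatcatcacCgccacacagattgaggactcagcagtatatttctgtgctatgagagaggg
Trav16d-dv11: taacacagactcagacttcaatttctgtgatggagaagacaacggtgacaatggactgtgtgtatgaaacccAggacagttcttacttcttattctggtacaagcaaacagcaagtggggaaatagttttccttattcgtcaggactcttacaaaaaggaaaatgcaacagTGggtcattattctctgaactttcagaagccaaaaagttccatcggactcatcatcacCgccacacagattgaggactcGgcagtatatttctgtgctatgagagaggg

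Over the whole leader and V coding sequence, Trav16n matched Trav16 at 97.7% of aligned positions and Trav16d-dv11 at 96.6%. Trav16 lay 411.9 kb from Traj61, Trav16n 803.9 kb and Trav16d-dv11 1107.7 kb.

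Counts in genes were 30825055, 29717056 and 32334325 in KO libraries, against 33377056, 32656497 and 29500254 in WT libraries. Levels are given as CPM, each count relative to its library's total after scaling by edgeR's TMM factor. Mettl14 had 42.2, 40.3 and 36.4 CPM in KO libraries, against 52.0, 58.8 and 55.8 CPM in WT libraries. The groups did not overlap, and the log2 fold change was -0.49 (SE 0.086, adjusted p = 0.289 by edgeR and 0.0043 by DESeq2). The count covers the whole gene, and the labels do not say which exons the floxed alleles remove. Summed double-positive markers reached 20710 to 21690 CPM in KO libraries and 20040 to 21560 CPM in WT libraries, and double-negative markers 21.2 to 28.2 CPM in KO libraries and 21.9 to 27.6 CPM in WT libraries. Within these sums, Ptcra (double-positive list) had 54.1, 47.0 and 51.7 CPM in KO and 40.5, 37.0 and 42.0 CPM in WT (edgeR adjusted p = 0.488). Cd44 (double-negative list) had 5.73, 8.36 and 9.11 CPM in KO and 10.6, 11.8 and 10.9 CPM in WT (edgeR adjusted p = 0.713). For both genes the groups did not overlap. Each was the only gene of its list, of 12 and 4, with an unadjusted edgeR p under 0.05, against 6.72% of all genes. Mature single-positive markers summed to 520.2 to 563.4 CPM in KO libraries and 523.0 to 588.3 CPM in WT libraries, B cell markers to 20.4 to 28.1 CPM in KO and 17.0 to 24.9 CPM in WT, and myeloid markers to 3.35 to 20.01 CPM in KO and 3.36 to 6.11 CPM in WT. Markers of gamma-delta and innate lymphocytes summed to 5.55 to 7.28 CPM in KO libraries and 2.19 to 3.06 CPM in WT libraries. The highest of these were Tcrg-C1 and Tcrg-C2, with means of 2.37 and 2.42 CPM in KO and 0.863 and 0.838 CPM in WT.

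One library in each group stood apart for Trav. KO replicate 1 had the lowest value of the 6 libraries, or tied for it, in 37 of 74 segments, against 18.5% of all genes tested. WT replicate 1 had the highest value in 40 of 74 segments (54.1%), against 27.7% of all genes tested.

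Trav segments together made up overlapping shares of the gene counts in KO and WT. They took 3128, 3360 and 3671 counts in KO libraries, against 4689, 3575 and 3089 counts in WT libraries. As a rate this was 101.5, 113.1 and 113.5 CPM of unscaled gene counts in KO and 140.5, 109.5 and 104.7 CPM in WT. The groups overlapped, and WT replicate 1 lay above the other 5 libraries. The means were 109.4 ± 6.83 in KO and 118.2 ± 19.4 in WT (SD, n = 3 each), a difference of -8.87 (two-sided exact permutation p = 0.8, where the smallest possible with 3 against 3 is 0.1). Without WT replicate 1 the difference was 2.27. Trac, the constant gene, was also highest in WT replicate 1, with 232.1, 270.9 and 255.5 CPM in KO and 347.9, 257.6 and 237.9 CPM in WT (log2 fold change -0.15, SE 0.14, edgeR adjusted p = 0.845). For each 100 Trac counts there were 44.7, 42.0 and 44.5 Trav counts in KO libraries and 39.4, 42.0 and 44.3 in WT libraries. In RNA from pooled cells, fewer cells using a segment and less RNA per cell cannot be told apart.

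Segments farther from the J cluster had lower levels in both groups. Per kilobase of annotated gene length, the median over both groups was 4.48 RPKM (TMM-scaled CPM per kilobase) for proximal segments, 1.74 RPKM for middle segments and 0.803 RPKM for distal segments. The 38 proximal segments ranged from 0.386 to 20.4 RPKM, the 17 middle segments from 0.184 to 5.95 RPKM and the 19 distal segments from 0.202 to 2.09 RPKM. Trav21-dv12, the nearest segment, was also the highest, at 20.5 RPKM in KO and 20.4 RPKM in WT. Across the 74 segments, log2 RPKM and distance had Pearson's r of -0.59 and Spearman's rho of -0.60. Without the 29 copies, r was -0.36 and rho -0.43 over 45 segments. These correlations are across genes that share 6 libraries and describe them only.

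**Figure D1:**
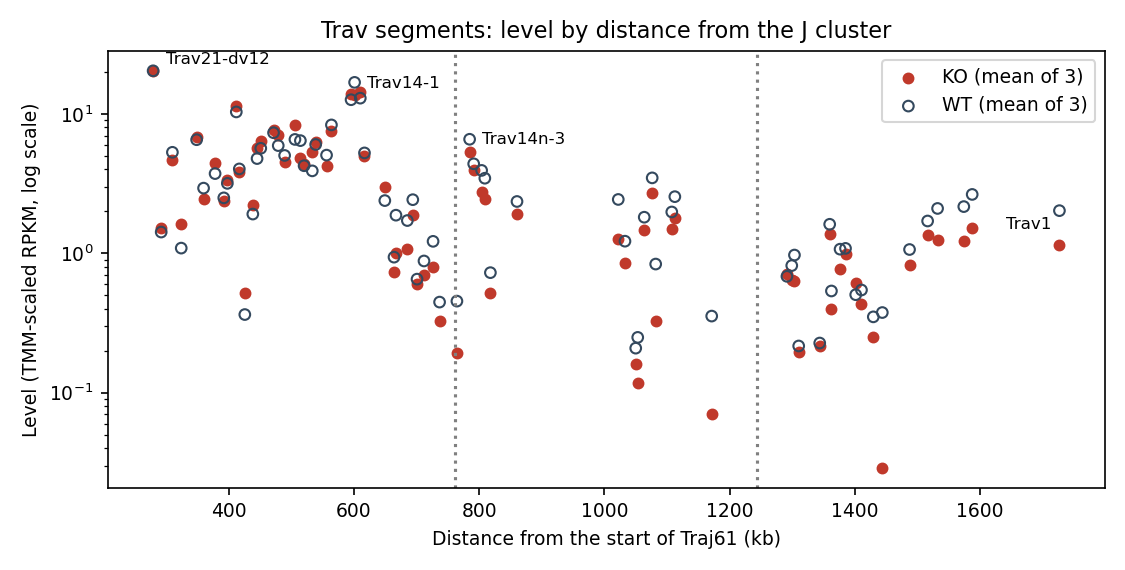
Mean level of each of the 74 Trav segments (TMM-scaled RPKM, log axis) against its distance from the start of Traj61 (kb), with KO as filled points and WT as open points, each the mean of 3 libraries. The highest segment is Trav21-dv12 at 279.0 kb, and class medians over both groups fall in order at 4.48, 1.74 and 0.803 RPKM.

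Segments with no counts were mostly near-identical copies. The raw table held 104 Trav identifiers, and 30 of them were not in the normalized table. These 30 had 10 counts in all 6 libraries together, 25 of them had 0, and 28 carried a copy mark. Reads with several alignments were kept out of gene counts and made up 22.6% to 23.9% of the reads in each library. The share of 50-base windows of a segment's transcript that occurs in none of the other Trav or Trdv genes of the annotation had a median of 54.5% for the 74 members. For the 30 others the median was 0%, and 28 of them had no such window at all. Of the 74 members 3 also had none but were counted, among them Trav14d-1 with 10 to 21 counts per library. Whether lacking such windows kept reads from a segment was not tested. Members with a copy mark had a median of 37.2%, against 61.7% for members without one. Among the 74 members, the share and the RPKM had a Spearman's rho of 0.47, or 0.58 with windows of 100 bases, given as a description. By class the medians were 57.5% for proximal, 46.8% for middle and 55.8% for distal members. These shares come from reference transcripts alone, which can be shorter than the gene length used for counting, and hold no values of KO or WT. Their part in the KO and WT values was not tested.

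**Figure D2:**
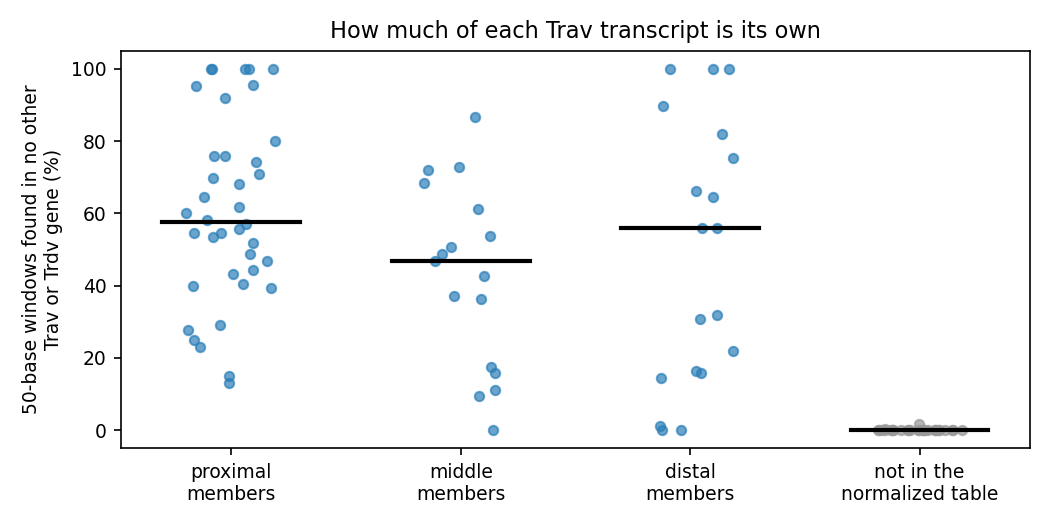
Share of 50-base windows found in no other Trav or Trdv gene (%), one point per segment, for proximal, middle and distal members and for the 30 identifiers absent from the normalized table, with bars at the medians. The medians are 57.5%, 46.8%, 55.8% and 0%.

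The Trav11 family was among those with hardly any counts. Trav11 (chr14:53519303-53519859) had 0 counts in all 6 libraries, and none of its 50-base windows occurred in it alone. Trav11d (chr14:52824340-52824912) had 0 counts in each KO library and in WT replicates 1 and 2, and 2 counts in WT replicate 3. A count of 0 allowed up to 0.0959%, 0.0893% and 0.0817% of Trav counts in KO libraries (3 counts, counting error only), against 0.0640% and 0.0839% in WT replicates 1 and 2. The invariant NKT V segment was thus below these limits in unique counts, and its true level was not measured in either group. Traj18, the J segment that it pairs with in NKT cells, had 6, 6 and 2 counts in KO libraries and 10, 6 and 2 counts in WT libraries, and the groups overlapped.

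Counts lay somewhat closer to the J cluster in the KO group on average, but the groups overlapped in every class. Proximal segments took 90.5%, 84.0% and 84.0% of Trav counts in KO libraries, against 79.7%, 84.5% and 82.2% in WT libraries. The KO mean was 86.1 ± 3.75% and the WT mean 82.1 ± 2.39%, a difference of 4.03 percentage points (SD, n = 3 each; two-sided exact permutation p = 0.3). KO replicate 1 was highest and WT replicate 1 lowest, and the other 4 libraries lay between 82.2% and 84.5%. Middle segments took 5.05%, 9.52% and 8.77% in KO libraries and 11.5%, 8.87% and 9.61% in WT libraries, with means of 7.78 ± 2.40% in KO and 9.999 ± 1.37% in WT and a difference of -2.22 points (exact permutation p = 0.2).

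Distal segments took 4.48% (Wilson 95% interval 3.81 to 5.26), 6.49% (5.70 to 7.37) and 7.27% (6.48 to 8.16) in KO libraries. In WT libraries they took 8.81% (8.03 to 9.65), 6.69% (5.91 to 7.55) and 8.19% (7.27 to 9.21). The intervals cover counting error only, since the reads carry no molecular identifiers. WT replicate 2 lay between the upper 2 KO libraries, so the groups overlapped. The means were 6.08 ± 1.44% in KO and 7.89 ± 1.09% in WT, a difference of -1.82 points (exact permutation p = 0.2). Adjusted over the 3 classes, each p was 0.3.

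**Figure D3:**
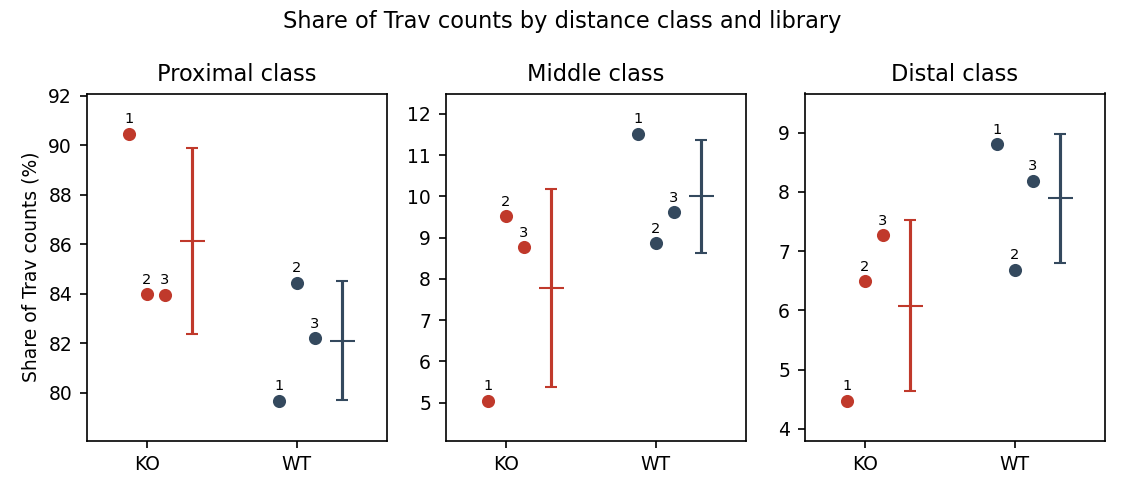
Share of Trav counts (%) in each library for the proximal, middle and distal classes, KO left of WT, with points for libraries and bars for the group mean ± SD (n = 3 each). KO replicate 1 is the highest proximal library (90.5%) and the lowest distal one (4.48%), and WT replicate 1 the lowest proximal (79.7%) and highest distal one (8.81%).

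The differences were smaller without those libraries. Leaving out KO replicate 1 brought the distal difference to -1.01 points and the proximal difference to 1.87 points. Leaving out WT replicate 1 gave -1.36 points for distal and 2.82 points for proximal segments. Without both, distal segments averaged 6.88% in KO and 7.44% in WT, and proximal segments 84.0% in KO and 83.3% in WT. The count-weighted mean distance of Trav from Traj61 was 523.7, 579.5 and 579.1 kb in KO libraries, against 617.3, 573.4 and 590.4 kb in WT libraries. It averaged 560.8 ± 32.1 kb in KO and 593.7 ± 22.1 kb in WT, a difference of -33.0 kb (exact permutation p = 0.3), and without both libraries -2.63 kb. The effective number of segments in use (the exponential of the Shannon entropy of their shares) was 34.7, 42.3 and 43.1 in KO libraries and 45.2, 41.9 and 42.5 in WT libraries (exact permutation p = 0.5). KO replicate 1 was lowest, and KO replicates 2 and 3 lay among the WT values. With counts divided by gene length the number was 35.6, 43.8 and 43.8 in KO libraries and 47.8, 43.95 and 44.0 in WT libraries. All 3 KO values then lay below the WT values, KO replicates 2 and 3 by a small margin (difference -4.21, exact permutation p = 0.1, the smallest possible).

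In summed CPM, group means differed least in the proximal class. It summed to 93.8, 95.5 and 95.5 CPM in KO libraries and 109.3, 91.3 and 86.7 CPM in WT libraries, a log2 ratio of means of -0.012. The middle class summed to 5.24, 10.8 and 9.97 CPM in KO libraries and 15.8, 9.59 and 10.1 CPM in WT libraries, a log2 ratio of -0.45 (exact permutation p = 0.5). The distal class summed to 4.64, 7.38 and 8.27 CPM in KO libraries and 12.1, 7.23 and 8.64 CPM in WT libraries, a log2 ratio of -0.46 (exact permutation p = 0.3). In the middle class KO replicate 1 was lowest, WT replicate 1 highest and the other 4 libraries lay between 9.59 and 10.8 CPM, and in each class the groups overlapped.

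No single Trav segment passed the test. Of the 74 members, 60 passed edgeR's filter on low counts (36 proximal, 11 middle and 13 distal), and 0 of them had an adjusted p under 0.05 by edgeR, by DESeq2 or by the adjusted p in the authors' deposited table. Over all genes, edgeR called 0.0383% of those tested, DESeq2 called 0.678% and the authors' deposited table called 0.762%. At an unadjusted p under 0.05 edgeR had 0 members higher in KO and 1 lower, Trav9-1, against 6.72% of all genes, 3.41% higher and 3.31% lower. Groups did not overlap for 1 of the 60 tested members in the higher direction and 2 in the lower (1.67% and 3.33%), against 6.59% and 5.95% of all genes tested. Over all 74 members, 1 was higher without overlap (1.35%) and 6 were lower (8.11%), 4 of the 6 having too few counts to be tested.

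Trav9-1, 667.0 kb from Traj61, had 0.398, 0.372 and 0.434 CPM in KO libraries, against 0.907, 0.545 and 0.785 CPM in WT libraries. All 3 KO values lay below the WT values, with -0.89 ± 0.33 (SE) as log2 fold change and 0.713 as edgeR's adjusted p. Trav13d-1, a distal copy at 1303.7 kb, had 0.298, 0.237 and 0.217 CPM in KO libraries and 0.409, 0.333 and 0.410 CPM in WT libraries. Its groups did not overlap either, but the values rest on 7 to 14 counts each (log2 fold change -0.61, SE 0.36, edgeR adjusted p = 0.776). In the other direction, Trav12-3 at 533.3 kb had 2.09, 2.44 and 2.57 CPM in KO libraries and 1.81, 1.63 and 1.71 CPM in WT libraries. All KO libraries lay above all WT libraries (log2 fold change 0.46, SE 0.21, edgeR adjusted p = 0.750).

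Trav1, the MAIT segment at the far end of the array, came next to Trav9-1 by edgeR's p. It had 0.597, 0.711 and 1.08 CPM in KO libraries, against 1.70, 0.938 and 1.61 CPM in WT libraries. KO replicate 3 lay above WT replicate 2, so the groups overlapped, with -0.82 ± 0.35 (SE) as log2 fold change and 0.733 as edgeR's adjusted p. By the window count Trav1 was fully distinct from the other segments, at 100%, over a transcript of 371 bases. Its gene length in the counts was 698 bases. Its neighbour Trav2, at 1587.7 kb, had 0.133, 0.677 and 0.682 CPM in KO libraries and 1.26, 0.605 and 0.717 CPM in WT libraries. Outside replicate 1 of each group its values ran from 0.605 to 0.717 CPM. Its log2 fold change of -0.79 became -0.34 without KO replicate 1 and -0.40 without WT replicate 1. Trav4d-2, a distal copy annotated as a pseudogene, had 0, 0 and 1 counts in KO libraries and 5, 4 and 4 counts in WT libraries, too few to pass the filter.

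The middle class was led by Trav14n-3, Trav16n and Trav13n-4, all n copies. Trav14n-3 had 1.26, 1.997 and 1.21 CPM in KO libraries and 2.57, 1.18 and 1.78 CPM in WT libraries (log2 fold change -0.31). Trav13n-4 had 0.331, 1.66 and 1.18 CPM in KO libraries and 1.67, 1.03 and 0.819 CPM in WT libraries (log2 fold change -0.16, or 0.27 without KO replicate 1). KO replicate 1 was the lowest library for Trav13n-4 and KO replicate 2 lay just under the highest, WT replicate 1. Of lower members, Trav6n-6 at 1022.2 kb had 0.199, 0.271 and 0.619 CPM in KO libraries and 0.994, 0.454 and 0.649 CPM in WT libraries (log2 fold change -0.93, edgeR adjusted p = 0.768). One KO library lay above the lowest WT library, and the log2 fold change ran from -1.56 without KO replicate 3 to -0.58 without WT replicate 1. Trav14d-3-dv8 had 0.663, 1.12 and 0.898 CPM in KO libraries and 1.52, 0.877 and 1.02 CPM in WT libraries (log2 fold change -0.36, or -0.090 without WT replicate 1).

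The Trav16 family, whose sequences are given above, sets near-identical segments at different distances side by side. Trav16 itself had 5.07, 4.54 and 4.83 CPM in KO libraries and 4.56, 4.02 and 4.47 CPM in WT libraries (log2 fold change 0.14). Trav16n, farther away, had 0.431, 1.29 and 1.21 CPM in KO libraries and 1.64, 1.30 and 1.23 CPM in WT libraries (log2 fold change -0.51, SE 0.40, edgeR adjusted p = 0.826). KO replicates 2 and 3 were close to WT replicates 2 and 3, and leaving out KO replicate 1 brought the log2 fold change to -0.15. Trav16d-dv11, the farthest, had 0.431, 0.474 and 0.682 CPM in KO libraries and 1.08, 0.605 and 0.410 CPM in WT libraries (log2 fold change -0.41, or 0.056 without WT replicate 1). The groups of the d copy overlapped fully.

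None of the highest proximal segments passed the test. Trav17, also at 100% by the window count, had 5.60, 4.98 and 5.58 CPM in KO libraries and 5.32, 4.96 and 5.22 CPM in WT libraries. Trav14-1 had 3.68, 5.69 and 5.51 CPM in KO libraries and 8.31, 4.84 and 5.05 CPM in WT libraries. For Trav14-1 the sign of the log2 fold change, -0.29, rested on WT replicate 1, without which it was 0.0040. Trav14-2 had 3.02, 3.18 and 3.41 CPM in KO libraries and 5.47, 3.39 and 3.93 CPM in WT libraries (log2 fold change -0.41, edgeR adjusted p = 0.769, or -0.19 without WT replicate 1). KO replicate 3 lay just above WT replicate 2. Trav8-1, at 685.2 kb, had 0.464, 0.305 and 0.279 CPM in KO libraries and 0.819, 0.424 and 0.444 CPM in WT libraries (log2 fold change -0.69, or -0.31 without WT replicate 1). Trav8-2 had the highest CPM of the members, at 10.5 ± 1.34 in KO and 10.9 ± 2.28 in WT, but it is annotated as a pseudogene of 2707 bases and had 3.86 RPKM in KO and 4.03 RPKM in WT. Trav18, at 323.9 kb, had 1.16, 0.779 and 1.24 CPM in KO libraries and 0.556, 0.756 and 0.819 CPM in WT libraries (log2 fold change 0.58, edgeR adjusted p = 0.767). One KO library of Trav18 lay below the highest WT library.

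Taking all 74 segments without the count filter, 17 of 17 middle and 17 of 19 distal segments had a log2 fold change below 0, against 18 of 38 proximal segments. The class medians were 0.039 for proximal, -0.49 for middle and -0.35 for distal, while the median over all genes in the same fit was -0.0028, and 51.1% of genes that passed the filter lay below 0. The change in sign did not sit at a class border. When the array was divided into 3 sets of near-equal number, 8 of the 25 segments nearest to Traj61 (279.0 to 563.9 kb) lay below 0. In the next 25 (595.3 to 1063.7 kb) 22 lay below 0, and in the farthest 24 also 22. Fold change and distance had Pearson's r of -0.49 and Spearman's rho of -0.63 over the 74 segments. These segments share the same 6 libraries, so their number does not add replicates. On a log2 ratio of mean CPM plus 0.1, r was -0.55 with all libraries, -0.38 without KO replicate 1, -0.40 without WT replicate 1 and -0.21 without both. Among tested members, the middle median of -0.41 became -0.20 without KO replicate 1 and -0.09 without WT replicate 1, but -0.57 without KO replicate 2 and -0.58 without KO replicate 3. The distal median of -0.36 became -0.30 without KO replicate 1 and -0.11 without WT replicate 1, but -0.61 without KO replicate 3 and -0.66 without WT replicate 2. The proximal median of 0.027 ran from -0.052 to 0.093 and lay below 0 in 4 of 6 such fits.

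**Figure D4:**
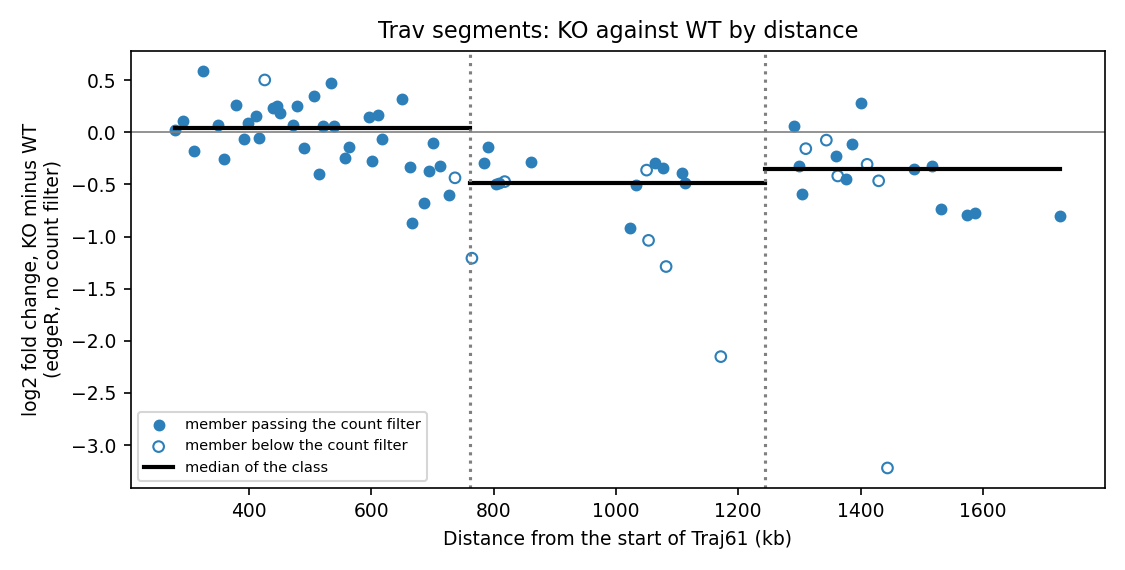
log2 fold change of each Trav segment, KO minus WT (edgeR without a count filter), against distance from the start of Traj61 (kb), with filled points for the 60 members that pass the count filter, open points for the other 14 and lines at class medians. Medians lie at 0.039 for the proximal, -0.49 for the middle and -0.35 for the distal class, all from the same 6 libraries.

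The 74 members fell into 20 families by the number after Trav, and families spread over the classes. Of 12 families with both proximal and distal members, 12 had a lower log2 ratio of summed CPM for the distal members than for the proximal ones. With any 1 library left out this held for 10 or 11 of the 12, and for 10 without replicate 1 of both groups. The families share the same 6 libraries and hold members already counted by class, so their number does not add replicates. The distal ratio itself lay below 0 in 11 of 12 families, in 8 without WT replicate 1 and in 7 without replicate 1 of both groups. In all of these families but Trav6 and Trav7 the distal part was 1 segment. Some of these segments had few counts, such as Trav10d with 2 to 4 counts per library. The Trav13 family had 13.1 CPM in KO and 13.2 CPM in WT from its proximal members. It had 0.251 CPM in KO and 0.384 CPM in WT from its 1 distal member, Trav13d-1, whose values are given above. Its log2 ratios were -0.01 for proximal members, -0.31 for middle members and -0.62 for Trav13d-1. Trav9 had -0.05, -0.55 and -0.43, and Trav8 had -0.09, -0.50 and -0.46, in the same order. Trav14 had -0.28, -0.33 and -0.35, and of the 12 families Trav15 alone had a distal ratio above 0 (0.21 proximal and 0.045 distal). For no family as a whole did KO and WT libraries fail to overlap.

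The 9 dv segments, which can serve the alpha or the delta chain, were not uniformly higher or lower in KO. They took 28.4%, 18.1% and 20.4% of Trav counts in KO libraries, against 16.7%, 21.6% and 22.01% in WT libraries (exact permutation p = 0.7). KO replicate 1 was the highest library and WT replicate 1 the lowest. Their log2 fold changes ran from -0.41 for Trav16d-dv11 to 0.33 for Trav15-2-dv6-2. The mean difference in share of 2.21 percentage points became -0.87 without KO replicate 1. Trav15-2-dv6-2, for example, had 4.64, 2.34 and 2.60 CPM in KO libraries and 2.08, 2.69 and 2.83 CPM in WT libraries. Its log2 fold change was 0.33, or -0.033 without KO replicate 1. Trav6-7-dv9 had 2.58, 2.23 and 1.58 CPM in KO libraries and 1.90, 1.63 and 1.88 CPM in WT libraries (log2 fold change 0.24, or 0.081 without KO replicate 1).

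The delta segments next to the Trav array moved with the same libraries. Counts in 8 Trd V, D and J segments were 39.6, 26.2 and 28.4 CPM in KO libraries and 18.5, 28.4 and 29.9 CPM in WT libraries. Their share of alpha and delta segment counts was 22.2%, 14.5% and 16.5% in KO and 9.43%, 16.1% and 17.3% in WT (exact permutation p = 0.5). KO replicate 1 was highest and WT replicate 1 lowest, in reverse order to the Trav distance. The gamma chain constant genes followed the groups instead. Tcrg-C2 had 2.25, 2.23 and 2.76 CPM in KO libraries and 0.673, 0.817 and 1.02 CPM in WT libraries (log2 fold change 1.53, edgeR adjusted p = 0.289). Among 7 listed gamma-delta and innate markers 6 were counted and 4 tested. All 4 lay above 0, while 51.1% of all genes tested lay below 0. edgeR called 0 of them and DESeq2 called 2, against 0.678% of all genes in DESeq2. Sox13 was nearly equal, at 0.581 CPM in KO and 0.568 CPM in WT (log2 fold change 0.046, SE 0.44). Zbtb16 averaged 0.022 CPM in KO and 0.023 CPM in WT, and Klrb1c 0.055 CPM in KO and 0.072 CPM in WT, too few to test. The part of these markers in the Trav values was not tested.

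At the other side of the join, Traj counts lay 21.3, 33.8 and 27.1 kb from the start of Traj61 on average in KO libraries, against 39.0, 31.9 and 28.3 kb in WT libraries, over 55 Traj segments. The means were 27.4 ± 6.25 kb in KO and 33.1 ± 5.40 kb in WT (exact permutation p = 0.4). KO replicate 1 lay nearest to the Traj61 end and WT replicate 1 nearest to Trac, so the same libraries were at the ends as for Trav. Across the 6 libraries, Trav distance and Traj distance had Pearson's r of 0.86 (permutation p = 0.0472, adjusted over 2 relations 0.0528) and Spearman's rho of 0.71 (permutation p = 0.136, adjusted 0.242). Trav distance and the delta share had r of -0.92 (permutation p = 0.0528, adjusted 0.0528) and rho of -0.60 (permutation p = 0.242, adjusted 0.242). Without KO replicate 1 and WT replicate 1, r was -0.44 for the Traj distance and 0.52 for the delta share over 4 libraries. Both relations rest on those 2 libraries.

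**Figure D5:**
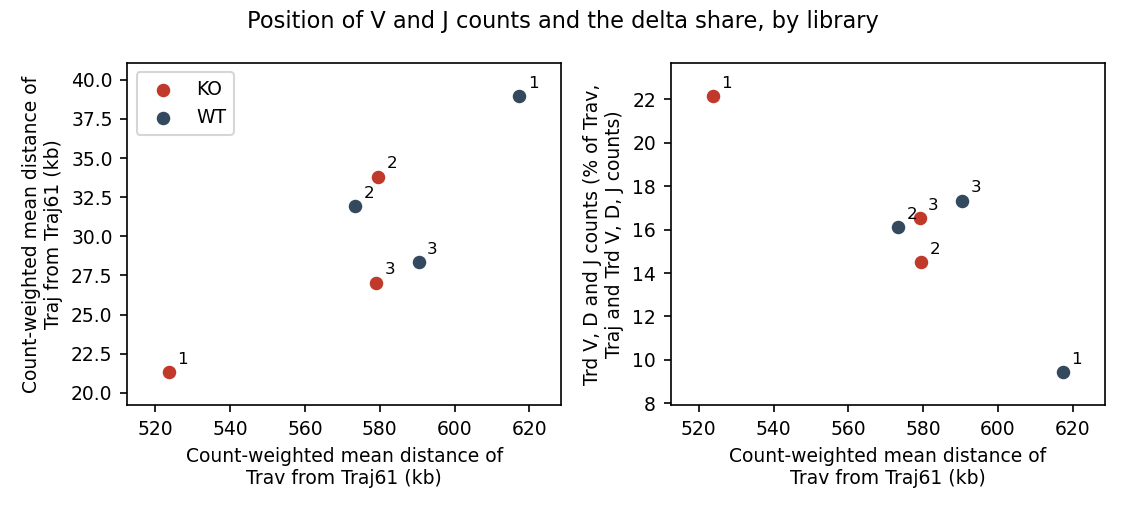
Count-weighted mean distance of Traj from Traj61 (kb, one panel) and delta share of alpha and delta segment counts (%, the other) against the count-weighted mean distance of Trav (kb), one point per library, KO and WT in different colours. KO replicate 1 (523.7 kb) and WT replicate 1 (617.3 kb) lie at the ends of both panels, and the other 4 libraries lie between 573.4 and 590.4 kb.

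No gene listed for alpha rearrangement passed the test. Of 33 listed, 32 were counted and tested, with 21 above 0, 11 below 0 and a median log2 fold change of 0.028. edgeR called 0, with 0 at an unadjusted p under 0.05, and DESeq2 called 0. Over all genes, edgeR called 0.0383% and DESeq2 0.678%, and 6.72% had an unadjusted edgeR p under 0.05. With shares this low, 0 calls in a short list say little about these genes. Rag1, a recombinase subunit, had 5090 ± 234.1 CPM in KO and 4831 ± 238.3 CPM in WT (SD, n = 3 each). Rag2, the other subunit, had 380.0 ± 23.1 CPM in KO and 344.8 ± 11.9 CPM in WT (log2 fold change 0.14, SE 0.069, edgeR adjusted p = 0.762). Bcl2l1, which encodes the survival protein Bcl-xL, had 331.4 ± 20.2 CPM in KO and 317.0 ± 11.8 CPM in WT.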

How the data were processed

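RNA was sequenced from 3 KO and 3 WT libraries made with Illumina TruSeq kits, per the labels' protocols. The submitters' processing notes name Trimmomatic 0.33, STAR 2.5.2, HTSeq, DESeq2 and build mm10. How reads were assigned (strand, mode, annotation release) is not given in the sources used here, so overlapping genes may share reads. Raw counts for each gene were deposited, with gene lengths and positions per the file headers. A normalized signal that the authors deposited was used here only to choose members. The log2 fold changes, Wald statistics (a score per gene) and adjusted p-values that the authors deposited came from a fit whose file is named as paired. Reads outside genes did not enter library sizes: those without a feature were 12.3% to 15.2% and ambiguous ones 0.653% to 0.701% of a library.

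Counts were tested with edgeR 4.0.16 (two-sided quasi-likelihood test of group with TMM factors and filterByExpr, Benjamini-Hochberg adjustment over 13039 genes, threshold 0.05) in R 4.3.3, with DESeq2 1.42.0 as an alternative. The edgeR test was checked on simulated data for KO against WT over 13039 genes: it recovered 27 of 81 genes changed 1.5-fold, 33 of 57 changed 2-fold and 58 of 62 changed 4-fold, with 10 false calls among 128. The changed genes were drawn at random from all genes tested, at their own levels. Recovery for segments with few counts, such as many middle and distal ones, was not measured apart. Shares and distances per library were compared by two-sided exact permutation. Members named in the text are the 10 highest in CPM, the 3 highest per class, Trav1 and the Trav11 family, the nearest and farthest, the dv forms, and up to 8 with the lowest edgeR p. Trav4d-2 and Trav14d-1 were added after their values were seen. The Trav members, gene lists and tests were chosen with earlier results of these data known, and the relations among Trav distance, Traj distance and delta share were added after seeing the data. Sequences came from GENCODE M21 transcripts, and all 104 Trav identifiers matched. Trdc is not analysed here, and 1 other listed gene is not reported here.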

Additional observations from a re-analysis of the deposited data

How the results depend on the processing

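Alternatives covered DESeq2 and its size factors, no count filter, each library left out, a replicate block, other class divisions, values per kilobase and removal of the copies; the removal of KO and WT replicate 1 together, and of Trav8-2 and Trav13-5, was chosen after seeing the data. Library, length, copy, class and block settings were run for the shares, and DESeq2, its size factors and the count filter for the gene tests. Lower distal and higher proximal shares in KO kept their direction under each setting run for them. With 1 library left out, the KO minus WT difference ran from -2.42 to -1.01 percentage points for the distal share, 1.87 to 5.20 for the proximal share, -43.1 to -14.4 kb for the mean distance, -15.6 to 2.27 CPM for the Trav share of gene counts, -4.71 to -0.47 for the effective number of segments and -0.87 to 4.33 points for the dv share. The Trav share of gene counts reversed without WT replicate 1 (2.27), and the dv share without KO replicate 1 (-0.87). Without replicate 1 of both groups, the Trav share (6.21), the effective number (0.54) and the dv share (-2.58) reversed. The Trav11 family difference ran from -0.0324 to 0 percentage points with 1 library left out, and was 0 without WT replicate 3 or without the copies, as its 2 counts were of Trav11d in that library.

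Calls over all genes numbered 5, against 105 by DESeq2, 30 without a count filter and 4 to 23 with a library left out; 0 Trav segments were called in each. The labels do not say that a replicate number pairs libraries. Deviations of same-numbered libraries correlated at -0.149, 0.0796 and 0.192, and those of differently numbered libraries at -0.282 to 0.181. The replicate block also gave 5 calls. Deviations from means of so few libraries cannot decide whether libraries were paired, and the authors' fit was named as paired.

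With 1 library left out, log2 fold changes of these genes crossed 0, and ran from -0.42 to 0.14 for Trav6d-5, -0.13 to 0.46 for Trav15d-1-dv6d-1, -0.66 to 0.056 for Trav16d-dv11, -0.62 to 0.27 for Trav13n-4, -0.57 to 0.012 for Trav14n-3, -0.013 to 0.33 for Trav13-1, -0.43 to 0.0040 for Trav14-1, -0.0010 to 0.21 for Trav15-1-dv6-1 and -0.033 to 0.52 for Trav15-2-dv6-2. They ran from -0.37 to 0.027 for Trav3-3, -0.085 to 0.29 for Trav4-4-dv10, -0.17 to 0.11 for Trav8-2, -0.20 to 0.22 for Trav13-4-dv7, -0.15 to 0.23 for Trav21-dv12 and -0.25 to 0.029 for Trac. Trav21-dv12 also reversed with the replicate block (-0.029). Beyond the libraries left out, the cause was not tested. Distal segments had few counts. Of the 30 identifiers outside the normalized table, 28 had no distinct 50-base window, as did 3 members that were counted.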
